A study of Homo sapiens with 20 samples.

Results

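The regions described here are cohesin peaks near the ends of human chromosomes. A peak, a stretch of the genome where chromatin immunoprecipitation followed by sequencing (ChIP-seq) found more reads than its background, was taken when its centre lay in the first or last 1 Mb of chromosomes 1 to 22 on the hg38 build. The short arms of the 5 acrocentric chromosomes (13, 14, 15, 21 and 22) were left out, so 39 chromosome arms entered. They held 2374 of the 188806 peaks of 6 lists. CHM13 cells had 949 RAD21, 490 SA1 and 512 SA2 peaks there, and RPE-1 cells had 232, 116 and 75. These were 1.10% to 1.59% of each list's peaks on chromosomes 1 to 22.

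RAD21, SA1 and SA2 were precipitated from hTERT CHM13 cells (3 replicates per subunit), a line from a complete hydatidiform mole, and from hTERT RPE-1 cells (2 replicates per subunit), a line from the retinal pigmented epithelium. Total chromatin was sequenced as input from both lines, for 20 libraries in all. No cells were treated or compared by genotype. Both lines carry hTERT, the catalytic subunit of telomerase, so neither was taken here as a model of telomere loss. Telomere length and telomerase activity are not among these data. The antibodies against SA1 and SA2 were the same in both lines, and that against RAD21 was not. The paper also describes a different sonicator for each line, and fly chromatin added to the CHM13 samples only. It reports fewer reads for the RPE-1 precipitates than for most CHM13 precipitates. Cell line, RAD21 antibody, number of replicates, sonication, added chromatin and read depth therefore cannot be told apart in a comparison of the lines. Each list pools its replicates and gives positions only, so a peak has no height. The lists hold no sequencing depth, and marker genes of the labelled cell types could not be examined. Intervals on densities and shares (95%) cover counting error only, and the tests take their error from the spread between the 39 arms. That spread lies within a pooled list and holds no variation between replicates, so no p-value here covers replicate error.

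Cohesin is a ring of SMC1, SMC3 and RAD21 that holds sister chromatids together and extrudes chromatin loops. A further subunit is either SA1 or SA2. Loop extrusion halts at sites bound by CTCF, a zinc-finger protein, and most cohesin peaks of interphase cells lie at such sites. SA1 binds telomere proteins and is known for its part in cohesion at telomeres, whereas SA2 is known for cohesion at centromeres. Human chromosome ends consist of TTAGGG repeats, followed inward by subtelomeric sequence that is shared in blocks between many ends. Telomeric RNA is transcribed from promoters within these blocks, and CTCF and cohesin are known to bind beside those promoters.

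The outermost peaks were examined first. On hg38 each arm begins with a stretch of N, the letter for unread bases, and distances to the outermost peak were counted from the first base that is not N. On 25 of the 39 arms, 2 copies of TTAGGG stood in a row on either strand within 3 kb of that base, and on 14 of these 25 arms (56.0%, Wilson interval 37.1 to 73.3%) a RAD21 peak of CHM13 cells was centred within 2 kb of it. On the 14 arms without the repeat, 0 had such a peak (interval 0 to 21.5%). The N stretch was 60.0 to 160 kb long on the arms without the repeat. It was 10.0 kb long on the arms with the repeat, except for 18q at 110 kb. Sequence of the arms without the repeat therefore starts further inside the chromosome, and their count does not show whether a peak lies nearer to the end. This 2-kb zone and the split by telomere repeat were chosen after the positions of these peaks had been seen, so the counts are a description, with no test. The 14 peaks lay at 0.740 to 1.88 kb (median 1.40 kb). Windows of 300 bases round 5 of their centres are shown to let a reader see what the ends share. They are read from the chromosome end inward, and capitals mark the letters of a CTCF core word, the middle of the sequence that CTCF binds. The words searched were CNAGGGGGC, CNAGATGGC, CNAGAGGGC and CNAGGTGGC on both strands, and, for these capitals, the same 4 words with G as the first letter, which were added after the sequences had been seen. Words of the list can overlap one another.
16p, chr16:10805-11104, plus strand: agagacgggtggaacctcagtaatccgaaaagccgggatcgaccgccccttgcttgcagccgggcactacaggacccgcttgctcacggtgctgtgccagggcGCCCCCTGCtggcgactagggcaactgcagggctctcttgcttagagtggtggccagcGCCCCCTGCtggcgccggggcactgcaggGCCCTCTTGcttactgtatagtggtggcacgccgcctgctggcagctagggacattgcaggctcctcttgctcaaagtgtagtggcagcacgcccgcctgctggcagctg
22q, chr22:50806649-50806948, minus strand: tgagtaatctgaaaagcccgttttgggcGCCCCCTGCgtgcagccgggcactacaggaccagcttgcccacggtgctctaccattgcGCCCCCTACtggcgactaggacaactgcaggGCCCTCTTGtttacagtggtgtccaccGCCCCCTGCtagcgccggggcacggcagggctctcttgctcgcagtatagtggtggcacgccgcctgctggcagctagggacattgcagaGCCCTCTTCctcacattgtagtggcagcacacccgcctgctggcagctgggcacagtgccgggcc
13q, chr13:114352594-114352893, minus strand: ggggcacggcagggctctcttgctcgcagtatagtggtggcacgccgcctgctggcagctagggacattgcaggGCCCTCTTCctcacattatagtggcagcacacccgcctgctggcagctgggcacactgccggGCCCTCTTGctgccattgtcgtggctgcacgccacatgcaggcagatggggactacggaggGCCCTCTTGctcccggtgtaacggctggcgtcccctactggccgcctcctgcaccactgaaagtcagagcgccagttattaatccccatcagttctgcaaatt
11q, chr11:135075729-135076028, minus strand: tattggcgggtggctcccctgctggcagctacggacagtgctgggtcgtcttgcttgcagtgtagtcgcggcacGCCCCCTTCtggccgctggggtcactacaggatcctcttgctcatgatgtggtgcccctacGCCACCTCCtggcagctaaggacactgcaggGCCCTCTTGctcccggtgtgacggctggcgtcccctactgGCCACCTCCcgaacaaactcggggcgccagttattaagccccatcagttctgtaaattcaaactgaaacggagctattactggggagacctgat
10p, chr10:11204-11503, plus strand: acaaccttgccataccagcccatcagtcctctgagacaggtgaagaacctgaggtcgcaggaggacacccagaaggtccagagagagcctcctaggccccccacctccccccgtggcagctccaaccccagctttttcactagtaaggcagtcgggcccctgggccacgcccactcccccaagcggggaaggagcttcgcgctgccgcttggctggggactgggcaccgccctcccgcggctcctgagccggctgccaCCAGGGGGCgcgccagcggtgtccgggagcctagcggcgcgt

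Counting repeats of a word, the windows of 16p and 22q held 3 and 5 matches to the 8 words, those of 13q and 11q 3 and 4, and that of 10p 1. Over all 14 peaks the number of matches was 1 to 6, with a median of 3.50. With the 4 words alone, 13 of the 14 windows held at least 1 and the exception was 9p. Of all 300-base tiles of the last 1 Mb, 4.54% held 1 of the 4 words and 10.8% held 1 of the 8. The GC content of the 14 windows was 60.0% to 68.7%.

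By pairwise alignment, 10 of the 14 windows formed a single family. These were 1p, 1q, 2q, 4q, 9p, 10q, 12p, 15q, 16p and 22q, where pairs that aligned over at least 200 columns were 86.6% to 100% identical. The windows of 13q and 21q formed a pair at 96.5%, and 10p and 11q joined no other window. That of 11q aligned to 13q at 78.4% over 268 columns and to 21q at 77.2% over 250. These values were just short of the identity required to join windows. The closest matches of 10p, to 9p and 15q, were at 59.2%. The windows of 13q and 21q aligned to members of the family over shorter stretches, among them 13q to 2q at 100% over 174 columns and 21q to 1q at 100% over 167, so the limit of 200 columns set them apart. In 13 of the 14 windows, at least 50% of the 31-base words occurred more than once in hg38. The exception was 11q, at 29.6%. The methods state no filter on mapping quality, and reads from identical copies cannot be assigned to an arm, so a peak on 1 member of the family may hold reads of another.

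The other lists shared only some of these sites. SA1 peaks of CHM13 cells lay within 2 kb of the first base on 6 arms (1p, 9p, 12p, 15q, 16p and 22q). SA2 peaks lay there on these 6 arms and on 11q, where the SA2 peak was at 0.739 kb and the nearest SA1 peak at 208 kb. In RPE-1 cells, RAD21 and SA2 each had such a peak on 1 arm, 16p, at 1.02 and 0.980 kb, and SA1 on 0 arms, where its nearest peak to a first base was that of 18q at 5.30 kb. The median distance of the outermost RAD21 peak on the 25 arms was 1.68 kb in CHM13 cells and 140 kb in RPE-1 cells. The whole RPE-1 RAD21 list held 14998 peaks and the CHM13 list 73881. The part of list length, read depth, antibody or cell line in this difference was not tested.

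**Figure D1:**
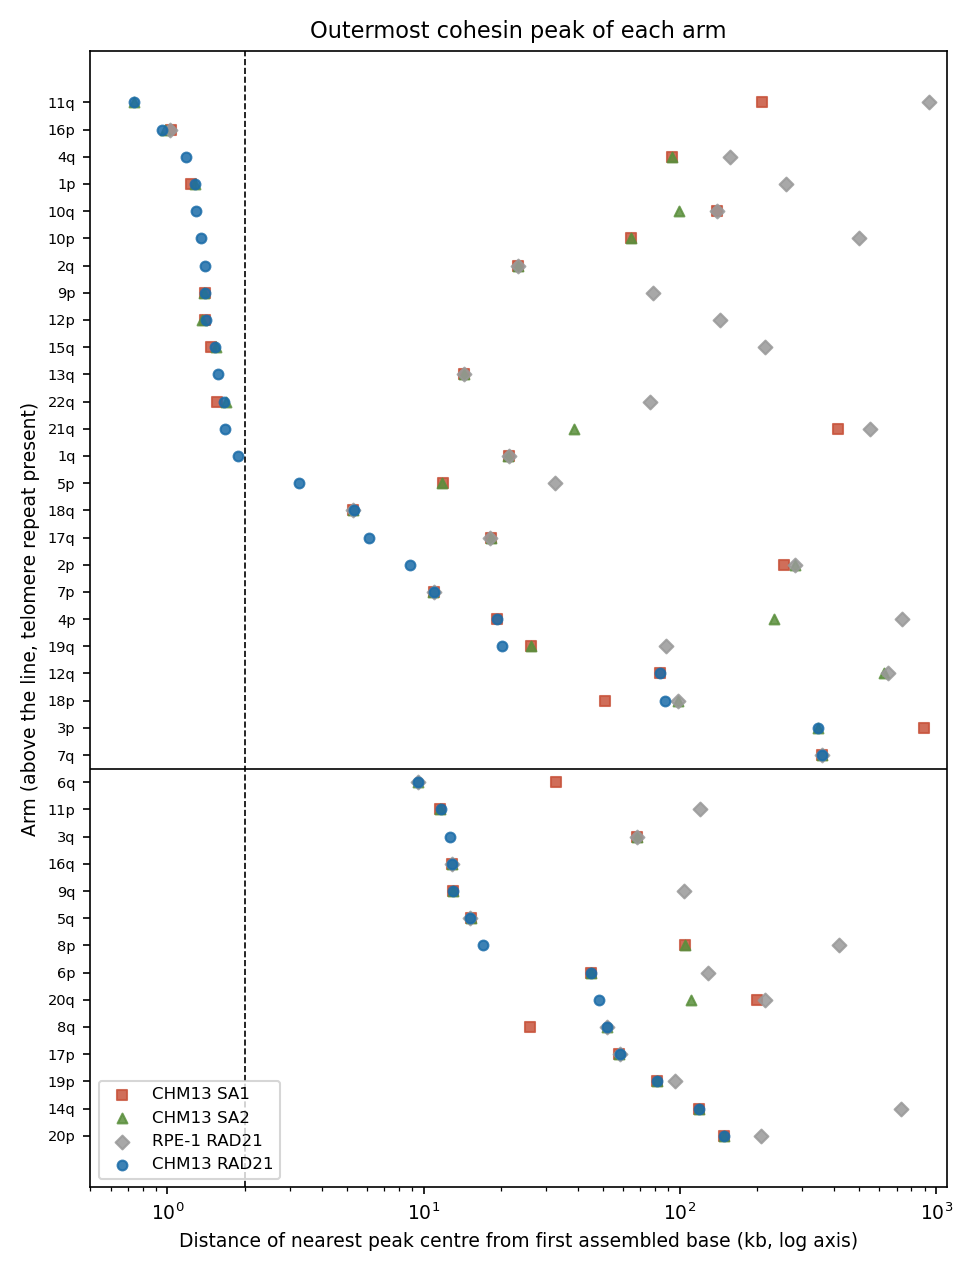
Distance of the nearest peak centre from the first assembled base of each arm (kb, log axis), with arms that hold the telomere repeat above the solid line and the others below, and the dashed line at 2 kb. CHM13 RAD21 peaks (blue circles) of 14 arms sit left of the dashed line, SA1 (squares) and SA2 (triangles) join them on 6 and 7 arms, and RPE-1 RAD21 (grey diamonds) on 1.

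On the CHM13 v1.0 build, which runs through the telomere, the start of the p arms could be examined without the sequence. A CHM13 RAD21 peak was centred within 5 kb of the first base on 6 of 17 p arms and within 15 kb on 12, and the nearest was at 2.93 kb. SA1 and SA2 had peaks within 5 kb on 2 arms each. RPE-1 RAD21 had none there, and its nearest peak was at 12.9 kb. Distances on this build include the telomere repeats and are not on the scale of the hg38 distances.

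Peak density over the last 1 Mb as a whole was then compared with sequence 1 to 5 Mb from the same ends, to ask whether cohesin peaks are denser at chromosome ends. It was not detectably different in any list. The last 1 Mb held 37.3 Mb of sequence without N over the 39 arms and the 1 to 5 Mb zone 156 Mb. CHM13 RAD21 had 25.5 peaks per Mb (23.9 to 27.1) in the last 1 Mb and 24.9 (24.1 to 25.7) further in, a ratio of 1.02 (95% interval 0.842 to 1.25). CHM13 SA1 had 13.1 and 12.6 peaks per Mb, a ratio of 1.04 (0.869 to 1.25), and SA2 had 13.7 in both zones, a ratio of 1.00 (0.838 to 1.20). The ratio of RPE-1 RAD21 was 0.962 (0.774 to 1.20), that of SA1 0.956 (0.751 to 1.22) and that of SA2 0.848 (0.637 to 1.13). All 6 had an adjusted p of 0.961 (two-sided quasi-Poisson model with the arm as a block, Benjamini-Hochberg over 6 lists). The interval for CHM13 RAD21 leaves room for a density up to 1.25 times as high at the ends. The widths of the peaks were also alike, with a median of 694 bp in the last 1 Mb and 695 bp further in for CHM13 RAD21, and peaks covered 1.97% and 1.96% of the bases.

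**Figure D2:**
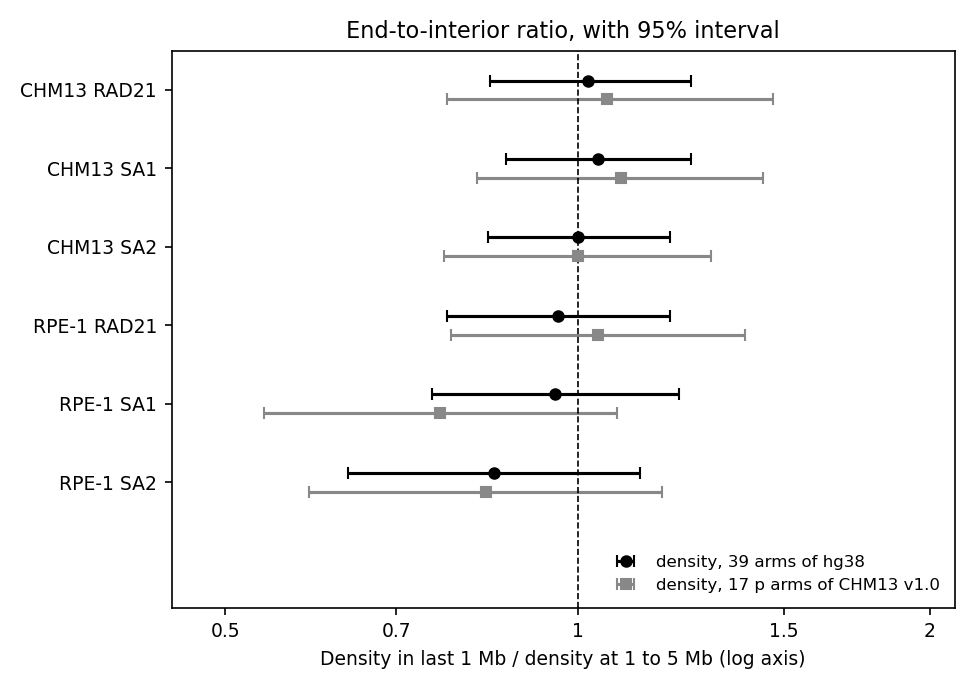
Peak density in the last 1 Mb divided by that at 1 to 5 Mb (log axis) for each list, with 95% intervals from the quasi-Poisson model, over 39 arms of hg38 (black circles) and 17 p arms of CHM13 v1.0 (grey squares). Every interval spans 1, and the hg38 ratios run from 0.848 to 1.04.

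On the 17 p arms of CHM13 v1.0 the ratios were 1.06 (0.773 to 1.47) for CHM13 RAD21, 1.09 for SA1 and 1.00 for SA2, and 1.04, 0.763 and 0.835 for RPE-1 RAD21, SA1 and SA2. The adjusted p-values of these fits were 0.695 to 0.993. The first 1 Mb of these arms held 448 CHM13 RAD21 peaks on CHM13 v1.0 and 429 on hg38. For RPE-1 SA2 the counts were 48 and 36, beside a whole list of 9579 peaks on CHM13 v1.0 and 6416 on hg38. No other list differed as much in size between builds.

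In 100-kb steps, densities of the outermost step were not detectably different from those of the rest of the last 1 Mb. CHM13 RAD21 ranged from 22.4 peaks per Mb (100 to 200 kb) to 27.9, a value reached both in the outermost step and at 900 to 1000 kb. SA1 and SA2 of CHM13 cells both ranged from 10.9 at 500 to 600 kb to 15.6 in the outermost step. RPE-1 RAD21 ranged from 3.89 to 8.97, with its highest step at 900 to 1000 kb. The outermost 100 kb against the next 900 kb gave a ratio of 1.08 (0.821 to 1.43) for CHM13 RAD21 and 1.20 (0.853 to 1.69) for CHM13 SA1, with CHM13 SA2 between them (0.782 to 1.66). The RPE-1 lists gave 1.23 (RAD21, 0.736 to 2.06), 1.64 (SA1, 0.761 to 3.55) and 1.33 (SA2, 0.546 to 3.22). The adjusted p was 0.559 for all 6. With an outermost zone of 50 kb the ratios were higher in CHM13 cells, where RAD21 had 1.58 (1.09 to 2.28), SA1 1.61 (0.989 to 2.64) and SA2 1.61 (0.999 to 2.60). These had unadjusted p-values of 0.0183, 0.0551 and 0.0505 in the quasi-Poisson model and an adjusted p of 0.110 each, so none passed the test. The outermost 100 kb is short of sequence, with 35.7% N and 2.51 Mb read in all, and RPE-1 SA1 and SA2 had 12 and 6 peaks in it.

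**Figure D3:**
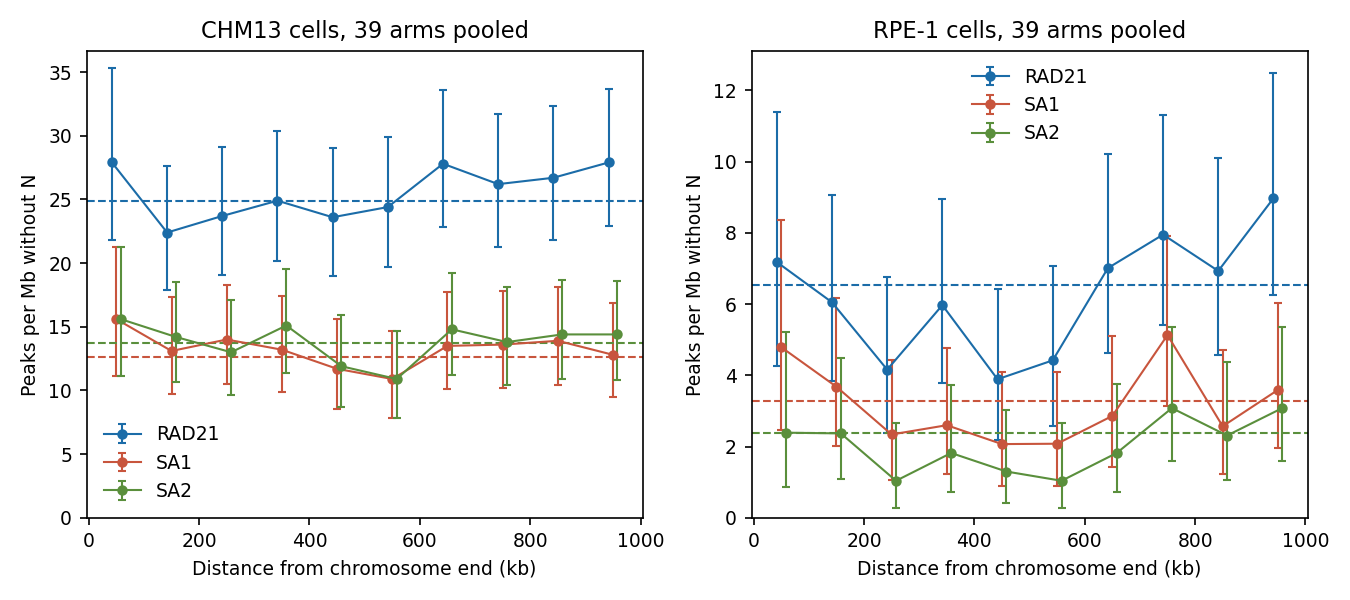
Peaks per Mb of sequence without N in 100-kb steps from the chromosome end, 39 arms pooled, in CHM13 (left) and RPE-1 (right) cells, with exact Poisson 95% intervals as bars and the density at 1 to 5 Mb as dashed lines. CHM13 RAD21 stays between 22.4 and 27.9 in all 10 steps, around its dashed line at 24.9.

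Density varied widely between arms, and so did the ratio of each end to the sequence beside it, from 0.131 on 14q to 7.54 on 5p for CHM13 RAD21. CHM13 RAD21 density in the last 1 Mb averaged 25.5 ± 12.9 peaks per Mb (SD, n = 39 arms), with a lowest value of 3.03, a median of 27.3 and a highest of 47.9. It was higher in the last 1 Mb than at 1 to 5 Mb on 21 of the 39 arms. The 3 densest ends were 17p at 47.9, 13q at 46.8 and 3q at 45.7 peaks per Mb, on 43, 44 and 43 peaks, which do not differ beyond their counting error. The 3 sparsest were 3p at 3.03, 14q at 3.57 and 4q at 5.32, on 3, 3 and 5 peaks. The end of 14q holds the immunoglobulin heavy chain locus and no protein-coding gene start of the annotation in its last 1 Mb, and that of 3p holds CHL1, a neural cell adhesion gene, as its single coding start. The 3 dense ends had 12, 14 and 8 coding starts.

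The 3 sparsest ends were also low in the other lists given here, while the densest were not all high in RPE-1 cells, where 13q was near the RAD21 median of 6.06 peaks per Mb. RPE-1 RAD21 had 10.0, 6.38 and 9.57 peaks per Mb at the ends of 17p, 13q and 3q, and 0, 1.19 and 1.06 at those of 3p, 14q and 4q. CHM13 SA1 had 16, 17 and 19 peaks at the ends of 3q, 13q and 17p, and 1, 1 and 4 at those of 3p, 14q and 4q. Over the 39 arms, the density of CHM13 RAD21 in the last 1 Mb had a Pearson r of 0.900 with that of SA1, 0.935 with SA2 and 0.710 with RPE-1 RAD21. It had an r of 0.469 with GC content, 0.278 with the number of coding starts and 0.0995 with the share of multicopy tiles, those in which at least 50% of the 31-base words occurred more than once in hg38. These correlations are given as descriptions, since the lists share arms, base composition and many of the same sites. At least 1 peak was present on every arm in the 3 CHM13 lists, while RPE-1 RAD21 had none on 1 arm, SA1 on 5 and SA2 on 10.

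The widest gaps between an end and the sequence beside it, picked after the values were seen, were those of 5p and 22q in one direction and 14q, 4q and 11q in the other. The end of 5p had 28.3 CHM13 RAD21 peaks per Mb against 3.75 further in, and that of 22q had 39.5, a level 3.03 times that further in. The end of 14q had 3.57 against 27.2, that of 4q 5.32 against 35.0 and that of 11q 9.09 against 40.0. The last 1 Mb held 16 coding starts on 5p and the next 4 Mb 13, and these numbers were 37 and 12 on 22q, 0 and 56 on 14q, 3 and 19 on 4q and 7 and 10 on 11q. Their part in these gaps was not tested.

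**Figure D4:**
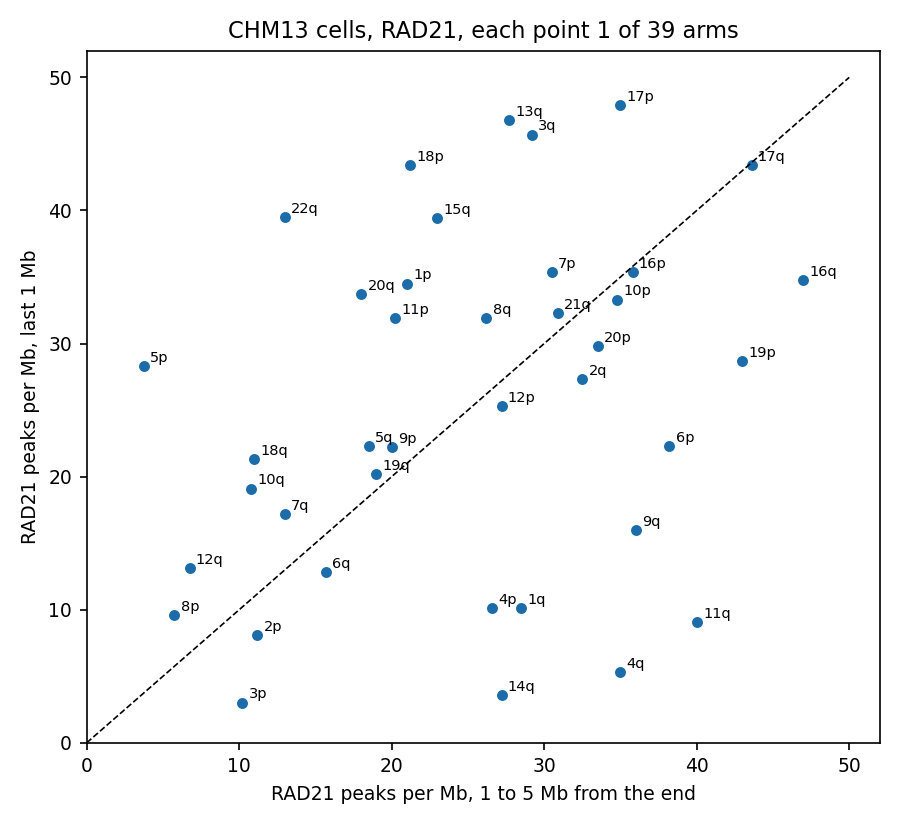
CHM13 RAD21 peaks per Mb in the last 1 Mb (vertical axis) against the density at 1 to 5 Mb (horizontal axis), each point an arm, with equality as the dashed line. Of 39 points, 21 lie above the line, with 5p and 22q far above it and 11q, 4q and 14q far below.

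The SA1 share of the SA1 and SA2 peaks was not detectably different between the ends and the sequence further in. In CHM13 cells, SA1 made up 48.9% of the SA1 and SA2 peaks in the last 1 Mb (490 of 1002) and 48.0% further in (odds ratio 1.04, 0.901 to 1.19). In RPE-1 cells it made up 60.7% (116 of 191) and 57.8% (1.13, 0.817 to 1.56). The adjusted p was 0.606 in both lines (quasi-binomial model over arms). Most sites were shared: 80.6% of the SA1 peaks of CHM13 cells in the last 1 Mb overlapped an SA2 peak by at least 1 bp, against 82.9% further in. In RPE-1 cells these shares were 50.9% and 58.5%. Shared sites count for both subunits and so draw the SA1 share towards equality. Among peaks that overlapped no peak of the other SA subunit, SA1 made up 44.6% at the ends and 40.4% further in for CHM13 cells. For RPE-1 cells these values were 78.1% and 74.0%, and neither difference passed the threshold.

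Overlap with RAD21, the ring subunit common to both complexes, was likewise not detectably different. Of the CHM13 SA1 peaks in the last 1 Mb, 94.5% overlapped a RAD21 peak, against 95.5% at 1 to 5 Mb and 94.5% of all SA1 peaks on chromosomes 1 to 22. For CHM13 SA2 these shares were 98.8%, 99.2% and, over all, 96.9%. For RPE-1 SA1 they were 86.2%, 91.7% and 78.8%, and for RPE-1 SA2 92.0%, 96.0% and 88.1%. The odds ratios of the last 1 Mb against 1 to 5 Mb were 0.802 (0.447 to 1.44), 0.677 (0.208 to 2.21), 0.562 (0.237 to 1.34) and 0.483 (0.178 to 1.31), with adjusted p-values of 0.513 for CHM13 and 0.377 for RPE-1 cells. In the other direction, 60.1% of the CHM13 RAD21 peaks in the last 1 Mb overlapped an SA1 or SA2 peak, against 60.2% further in.

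The cell lines were compared by asking how often a CHM13 site was also found in RPE-1 cells. In the last 1 Mb, 24.1% of CHM13 RAD21 peaks overlapped an RPE-1 RAD21 peak (229 of 949), against 25.5% at 1 to 5 Mb and 19.5% of all. For SA1 the shares were 23.5%, 25.5% and, over all, 27.5%, and for SA2 14.6%, 17.4% and 14.2%. The odds ratios were 0.932 (0.683 to 1.27), 0.894 (0.685 to 1.17) and 0.816 (0.603 to 1.10), with adjusted p-values of 0.651, 0.604 and 0.550. Conversely, 229 of 232 RPE-1 RAD21 peaks, 115 of 116 SA1 peaks and 75 of 75 SA2 peaks at the ends overlapped a CHM13 peak of the same subunit. In percent, these were 98.7%, 99.1% and 100% at the ends, beside 97.9%, 99.0% and 99.7% at 1 to 5 Mb. In both zones nearly all RPE-1 sites were thus also sites of the longer CHM13 lists, with 4 exceptions at the ends. The end-to-interior ratio itself did not detectably differ between the lines, as the odds ratio of RPE-1 to CHM13 peaks was 0.932 for RAD21 (0.735 to 1.18), 0.916 for SA1 (0.729 to 1.15) and 0.840 for SA2 (0.641 to 1.10), with an adjusted p = 0.558 for each (quasi-binomial model, n = 39 arms).

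Sites with peaks of all 6 lists numbered 54 in the last 1 Mb, on 26 arms. They were 5.69% of the CHM13 RAD21 peaks there (Wilson interval 4.39 to 7.35%), and 7.43% (6.65 to 8.30%) at 1 to 5 Mb, a difference that was not tested. The outermost such site of each arm was taken, and the 6 of these nearest to their ends are shown. They are read from the end inward with the same capitals.
17q, chr17:83205500-83205799, minus strand: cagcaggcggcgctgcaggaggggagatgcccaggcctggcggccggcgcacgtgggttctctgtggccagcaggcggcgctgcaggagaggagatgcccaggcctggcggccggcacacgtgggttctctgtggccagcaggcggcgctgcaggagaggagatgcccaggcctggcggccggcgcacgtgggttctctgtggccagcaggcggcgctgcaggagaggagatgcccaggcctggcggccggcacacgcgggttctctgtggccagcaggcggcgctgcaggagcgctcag
7p, chr7:64093-64392, plus strand: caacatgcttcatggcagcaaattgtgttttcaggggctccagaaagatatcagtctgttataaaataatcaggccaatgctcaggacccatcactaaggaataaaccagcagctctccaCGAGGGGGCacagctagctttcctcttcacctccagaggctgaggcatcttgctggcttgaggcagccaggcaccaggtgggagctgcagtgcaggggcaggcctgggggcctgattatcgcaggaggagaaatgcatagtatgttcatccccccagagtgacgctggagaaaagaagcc
16p, chr16:65693-65992, plus strand: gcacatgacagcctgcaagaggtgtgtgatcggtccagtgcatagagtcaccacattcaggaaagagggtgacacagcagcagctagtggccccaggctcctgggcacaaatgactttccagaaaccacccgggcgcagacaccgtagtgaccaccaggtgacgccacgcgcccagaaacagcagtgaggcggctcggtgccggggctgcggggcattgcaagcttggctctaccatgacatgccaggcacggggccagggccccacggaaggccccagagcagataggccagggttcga
9p, chr9:88673-88972, plus strand: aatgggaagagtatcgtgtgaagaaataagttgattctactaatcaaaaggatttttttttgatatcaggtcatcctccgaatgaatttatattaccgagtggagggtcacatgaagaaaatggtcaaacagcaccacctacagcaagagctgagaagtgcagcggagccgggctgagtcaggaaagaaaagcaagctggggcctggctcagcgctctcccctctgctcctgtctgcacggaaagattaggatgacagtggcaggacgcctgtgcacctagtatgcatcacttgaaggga
13q, chr13:114226725-114227024, minus strand: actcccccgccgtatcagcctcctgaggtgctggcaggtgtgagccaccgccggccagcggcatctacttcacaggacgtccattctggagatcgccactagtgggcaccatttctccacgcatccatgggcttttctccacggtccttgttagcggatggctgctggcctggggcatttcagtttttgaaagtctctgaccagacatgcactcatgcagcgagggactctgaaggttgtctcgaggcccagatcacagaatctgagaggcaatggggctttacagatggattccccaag
19p, chr19:155246-155545, plus strand: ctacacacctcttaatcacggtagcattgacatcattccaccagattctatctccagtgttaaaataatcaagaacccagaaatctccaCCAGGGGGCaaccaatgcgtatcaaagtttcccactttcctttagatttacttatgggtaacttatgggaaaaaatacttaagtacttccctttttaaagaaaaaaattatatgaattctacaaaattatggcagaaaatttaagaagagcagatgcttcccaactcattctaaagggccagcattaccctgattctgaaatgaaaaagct

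The site of 17q lies 51.8 kb from the end in an intron of a long noncoding RNA gene, at chr17:83205083-83206216, and its window is a tandem repeat with none of the 8 words. The site of 7p is intergenic, 64.2 kb from the end, at chr7:63832-64654. The site of 16p lies 65.8 kb from the end at chr16:65452-66234, in an intron of RHBDF1, a rhomboid family gene upstream of the alpha-globin genes. The site of 9p overlaps an exon of the noncoding RNA gene PGM5P3-AS1 at chr9:88463-89183. The sites of 13q (chr13:114226485-114227264) and 19p (chr19:155015-155777) are intergenic. Their nearest coding starts are those of CDC16, a subunit of the anaphase-promoting complex, at 8.01 kb and of the olfactory receptor gene OR4F17 at 48.3 kb. At 17q, 9p and 19p, 97.4%, 99.3% and 100% of the 31-base words occurred more than once in hg38, and at 7p, 16p and 13q 0%. The windows of 7p and 19p held a CTCF core word and the other 4 held none, which says only that these letters were not in these windows.

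Over all peaks of the last 1 Mb, a CTCF core word of the first 4 was found in the 300 bases round the centre of 24.2% of CHM13 RAD21 peaks, against 20.4% at 1 to 5 Mb and 14.3% of all peaks. For CHM13 SA1 the shares were 33.1%, 28.6% and, over all, 21.5%, and for SA2 31.8%, 25.8% and 18.8%. For RPE-1 RAD21 they were 45.7%, 38.4% and 33.6%, for SA1 38.8%, 36.5% and 31.6%, and for SA2 40.0%, 40.1% and 33.2%. The highest odds ratios of the last 1 Mb against 1 to 5 Mb were those of RPE-1 RAD21 (1.35, 0.995 to 1.83) and CHM13 SA2 (1.34, 0.988 to 1.82), and the adjusted p-values of the 6 lists were 0.178 to 0.994. Peaks held the words far more often than sequence did, since 4.54% of the 300-base tiles in the last 1 Mb and 4.63% of those at 1 to 5 Mb had one.

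Many of the outermost peaks lay in sequence that hg38 holds more than once. In the outermost 100 kb, 50.0% of the CHM13 RAD21 peaks (35 of 70) were multicopy, that is, at least 50% of the 31-base words in their window occurred more than once in hg38. The share was 14.4% over the last 1 Mb and 3.98% at 1 to 5 Mb. The sequence itself followed the same order, with 57.6%, 22.8% and 11.7% of tiles multicopy. For CHM13 SA1 it was 53.8% in the outermost 100 kb and for CHM13 SA2 51.3%, and RPE-1 RAD21 had 50.0% (9 of 18). The differences between peaks and tiles were not tested.

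**Figure D5:**
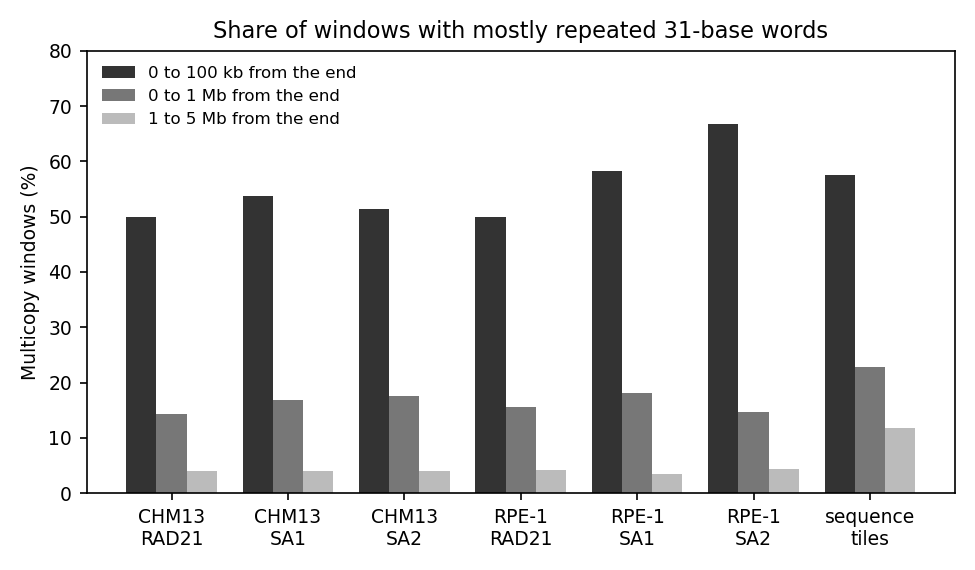
Percent of 300-base windows in which at least 50% of the 31-base words occur more than once in hg38, for the peaks of each list and for sequence tiles, in the outermost 100 kb, the last 1 Mb and 1 to 5 Mb from the end. For CHM13 RAD21 the bars fall from 50.0% to 14.4% to 3.98%, and for tiles from 57.6% to 22.8% to 11.7%.

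Peaks near protein-coding gene starts took a larger share of the CHM13 lists at the ends, a difference that did not pass the test after adjustment. Of the CHM13 RAD21 peaks in the last 1 Mb, 18.3% (174 of 949) lay within 1 kb of a protein-coding gene start, against 502 of 3874 at 1 to 5 Mb and 8.34% of all peaks. The odds ratio was 1.51 (1.05 to 2.16, n = 39 arms) with an unadjusted p = 0.0259 and an adjusted p = 0.133 (quasi-binomial model). This model took the end and the interior of an arm as separate units, and a fit that paired them was not run for these shares. For CHM13 SA1 the shares were 18.6%, 13.4% and, over all, 8.14%, and for SA2 10.7%, 7.59% and 6.08%. For RPE-1 RAD21 they were 7.76%, 6.79% and 7.83%, for SA1 6.90%, 3.34% and 3.58%, and for SA2 3 of 75 peaks, 3.76% and 4.59%. The adjusted p-values of these 5 lists were 0.133 to 0.922. Within 5 kb of a start, the odds ratios of the CHM13 lists were 1.57 (1.07 to 2.29), 1.55 (1.05 to 2.30) and 1.54 (1.07 to 2.21) for RAD21, SA1 and SA2, each with an adjusted p of 0.0575 (quasi-binomial model). The last 1 Mb held 17.2 coding starts per Mb and the next 4 Mb 11.0, with a GC content of 48.2% and 47.2%. Counted by gene rather than by peak, 198 of the 641 coding genes that start in the last 1 Mb (30.9%) had a CHM13 RAD21 peak within 1 kb of the start, and 534 of 1720 further in.

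Among the coding genes whose start is nearest to each of the 39 ends, 9 had a CHM13 RAD21 peak within 1 kb, 5 an SA1 peak, 5 an SA2 peak and 2 an RPE-1 RAD21 peak, and 29 had no peak of any list. Over all 641 coding genes that start in the last 1 Mb, 30.9% had a CHM13 RAD21 peak, 18.1% an SA1 peak, 9.67% an SA2 peak and 2.81% an RPE-1 RAD21 peak, and 414 had none. SCGB1C1 on 11p and SCGB1C2 on 17p, a pair of secretoglobin genes, were the ones with peaks in 4 lists, RAD21, SA1 and SA2 of CHM13 cells and RAD21 of RPE-1 cells. Their RAD21 windows were 88.5% and 80.7% multicopy, so the reads behind either peak may come from the other gene. TUBB8, an oocyte beta-tubulin gene on 10p, and PGBD2, a gene derived from a piggyBac transposase on 1q, had the 3 CHM13 peaks and none of RPE-1 cells. METRNL, which encodes a secreted protein, on 17q had RAD21 and SA2 peaks. DUSP22, a phosphatase gene on 6p, FAM20C, a secretory pathway kinase gene on 7p, CHAMP1, a chromosome alignment gene on 13q, and PCMTD2 on 20q had the RAD21 peak of CHM13 cells alone. C8orf33 on 8q had an SA1 peak without a RAD21 peak.

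Of 18 coding genes of subtelomeric families (olfactory receptors of the OR4F group, tubulin, WASH and zinc finger genes among them), 1 had a peak at its start, TUBB8, and 17 had none, beside 414 of the 641 coding genes of the last 1 Mb with none. In the alpha-globin region of 16p, 4 of 10 genes had a CHM13 RAD21 peak at the start, beside 30.9% of the 641 coding genes of the last 1 Mb. RHBDF1 and MPG, which are among the 4, start at positions 76355 and 77007, within 1 kb of each other. The same peaks may therefore count for both. HBQ1, the theta-globin gene, had peaks in 4 lists, MPG, a DNA repair glycosylase gene, and RHBDF1 had RAD21 and SA2 peaks of CHM13 cells, and AXIN1, a Wnt pathway scaffold gene, had RAD21 alone. The other globin genes HBZ, HBM, HBA2 and HBA1 had none in any list.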

How the data were processed

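The authors deposited peak lists (BED positions, other unit: start and end in bp with no height, fold or p-value), 6 on hg38 and 6 on CHM13 v1.0, each pooling the replicates of a cell line and subunit. The paper also lists averaged coverage tracks for the subunits and the input, which were not used here. For CHM13 v1.0 the authors aligned reads with bwa mem, removed secondary and supplementary alignments with samtools, called peaks per replicate with macs, merged replicates and dropped loci seen in fewer than 2. The alignment to hg38 is not given in the sources used here beyond the tools and build named in the submitters' processing notes. Read depth is not in the peak lists and was not used, so precision was set by peak counts.

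Peaks were placed by centre. Densities are per Mb without N, from the chromosome ends of hg38. Counts per arm and zone were fitted by a quasi-Poisson model with the arm as a block. Shares were fitted by a quasi-binomial model with zone as its only term, so the end and interior of an arm were not paired. For shares, the arm as a block was an alternative only for the SA1 share and the RPE-1 share of peaks. Dispersion was not below 1, with Benjamini-Hochberg adjustment within each family and a threshold of 0.05. Intervals are 95%, exact Poisson for densities and Wilson for shares. Overlap meant at least 1 bp. Models were fitted with statsmodels 0.14.6, windows aligned with biopython 1.88 and figures drawn with matplotlib 3.10.9, under Python 3.11.15. Other steps used scipy 1.17.1 and numpy 2.4.6, and genes came from GENCODE 44. Sequence was read from hg38, and no coordinates were converted between builds. Tiles are windows of 300 bases every 3 kb. Windows were joined into a family when they aligned over at least 200 columns at 80% identity or more. The models were tested on simulated data.

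The arms named were the 3 densest and 3 sparsest for CHM13 RAD21, and the sites were the outermost peak of each list and, per arm, the outermost site of all 6 lists, of which the 6 nearest to their ends are shown (none of chromosome 8). The genes were the coding start nearest to each end, an alpha-globin list and subtelomeric families. The members and lists were chosen with earlier results of these data known. Alternatives concerned zone widths, denominators, covariates, overlap and word rules, and leaving out each arm. Input libraries have no list of their own among the 12 files.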

Additional observations from a re-analysis of the deposited data

How the results depend on the processing

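No fit passed the threshold as reported and none passed it under an alternative. Ratios near 1 changed side of 1 under some. For density in the last 1 Mb, CHM13 RAD21 gave 0.969 with the last 500 kb and 0.957 with GC and gene starts as covariates, and CHM13 SA1 gave 0.947 with those covariates. CHM13 SA2 gave 0.956 with them, 0.983 with the last 2 Mb, 0.968 against 5 to 10 Mb, 0.978 by covered bases, 0.993 without the outermost 100 kb and 0.988 in single-copy sequence. RPE-1 RAD21 gave 1.06 with the last 2 Mb and 1.05 against 5 to 10 Mb, and RPE-1 SA2 gave 1.08 with the last 2 Mb. With GC and gene starts as covariates, the ratio was below 1 in every list. It was 0.860 (0.738 to 1.00) for RPE-1 RAD21 and 0.777 (0.603 to 1.00) for RPE-1 SA2. Their unadjusted p-values were 0.0534 and 0.0514 (quasi-Poisson model over 100-kb steps), with an adjusted p of 0.160 each. Without these covariates, leaving out each arm in turn gave 0.997 to 1.06 for CHM13 RAD21, 1.01 to 1.08 for SA1, 0.975 to 1.03 for SA2, and 0.929 to 0.998, 0.916 to 0.988 and 0.810 to 0.880 for the RPE-1 lists. For the outermost zone, CHM13 RAD21 gave 0.940 with 200 kb and 1.58 with 50 kb (adjusted p 0.110), and with 50 kb CHM13 SA1 and SA2 both gave 1.61 and RPE-1 SA2 0.590. For p arms of CHM13 v1.0 with the first 500 kb, CHM13 SA2 gave 0.935 and RPE-1 RAD21 0.946. Within 5 kb of gene starts the CHM13 lists gave 1.54 to 1.57 (adjusted p 0.0575). Odds ratios that changed side were RPE-1 SA2 within 5 kb of gene starts (0.876), RPE-1 SA2 for CTCF words in 100 (1.17) and 600 bases (1.07), and RPE-1 SA1 with 8 words (0.937). The cause was not tested. Single-copy sequence and the 8 words were chosen after seeing the data. Zones counted from the first base that is not N were also not planned, and gave density ratios of 0.880 (RPE-1 SA2) to 1.06 (CHM13 SA1).

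No paired analysis was possible because each list pools its replicates, with pairing meant here by replicate number. Pooling also prevented leaving out a replicate. The end and interior of an arm were paired in the main density fits, which took the arm as a block. For shares, such pairing was an alternative only for the SA1 share and the RPE-1 share of peaks. Peak positions without height cannot show stronger binding at a site, and a density near 1 times that of the interior does not show equal occupancy. Sequence under N, acrocentric short arms and the q arms of CHM13 v1.0 were not analysed here. In repeated sequence near the ends, an arm's own peaks cannot be told from those of its copies.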
